A study of Mus musculus with 8 samples.

Results

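The transcripts described here are those of the mitochondrial ribosomal proteins in naive CD8 T cells of Brca1 wild type (WT) and Brca1 heterozygous (Het) mice. They were chosen by symbol alone, as every gene whose name starts with Mrpl or Mrps and a number, with pseudogene symbols left out. This gave 76 of the 22609 genes in the deposited table, 47 with a large subunit symbol (Mrpl) and 29 with a small subunit symbol (Mrps). RNA sequencing covered 8 libraries, WT 45, 54, 57 and 65 and Het 31, 53, 56 and 139, named by genotype and by the number in the sample title. All came from spleens of C57BL/6 mice aged 3 months and from naive CD8 T cells, the cytotoxic T cell precursors that have not met antigen. Brca1 genotype was the one labelled difference between the groups. How the allele was made, the sex and any batch are not given in the labels, and they do not state whether each library is a separate animal. The tests therefore speak of the spread between these 8 libraries, which may be technical.

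Mitochondria carry their own ribosome, which translates the few proteins encoded by mitochondrial DNA, all of them subunits of the respiratory chain and ATP synthase. Its proteins are encoded in the nucleus, made in the cytosol and imported, while its RNA is made inside the mitochondrion. The large subunit (Mrpl) forms peptide bonds and the small subunit (Mrps) reads the messenger RNA. T cells build up mitochondrial translation when they leave the naive state. Symbols do not always match position: the proteins of Mrps18a and Mrps30 sit in the large subunit, and Mrps36 was later assigned to the oxoglutarate dehydrogenase complex.

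The values are the authors' normalized read counts per gene, which had been brought to the same distribution in every library. They compare a gene between libraries. Their totals carry no information on total RNA or depth, which shows only in the spacing of low values. The lowest value above 0, that of about 1 read, lay between 0.9 and 1.9 in Het libraries and between 0.2 and 0.3 in WT libraries. Genes above 0 numbered from 13863 to 14656 (Het) and from 15358 to 15569 (WT). Low values thus rest on different read numbers in the genotypes. The T cell identity of the libraries was checked with 11 markers. Of these, 7 were higher and 4 lower in Het, with log2 differences from -0.14 to 0.26, and 0 passed the test. Their summed level ranged from 308429.2 to 345116.5 (Het) and from 296878.1 to 324454 (WT). Cd8a, a chain of the CD8 coreceptor, averaged 47419 ± 1982 in Het and 43956 ± 2594 in WT libraries (SD, n = 4 per genotype). The summed level of 8 B cell markers ranged from 3422.7 to 16786.6 over Het libraries and from 2620.2 to 7121.4 over WT libraries. For 8 NK cell markers the ranges were 2046.3 to 4280 (Het) and 1780 to 2358.4 (WT), with 1 marker at 0 in every library, and for 8 myeloid markers 1423.6 to 5061 (Het) and 1762.5 to 3466.9 (WT). Eomes made up much of each NK cell sum and had similar means (1463 in Het, 1445 in WT). The NK cell sums therefore understate the Het excess in the other NK cell markers. Among 7 tested NK cell markers, 6 had the larger mean log2 value in Het. The typical gap was 0.87 (median of all 7), but the genotypes overlapped in each and 0 passed. For 10 nerve and connective tissue markers the summed levels were 9904.7 to 10866.1 (Het) and 13998.8 to 17662.5 (WT). Mbp, 1 of these markers, made up most of each sum and hardly differed (9329.1 to 10457.2 in Het, 9433.9 to 10942.5 in WT). The sums therefore understate the difference in the other markers. Of these 10, 9 were lower in Het and 5 passed the test, among them Dcn, a matrix proteoglycan (9.1 to 54.1 in Het, 285 to 685.1 in WT), and the part of this tissue in the differences of the members was not tested. In a bulk sample, fewer cells of a type and less RNA per cell cannot be told apart.

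Promoters of the members were searched for 4 motifs, which the choice by symbol did not use. RefSeq promoter sequences (GRCm38.p6, from 250 bases before to 50 after the start of the gene) were matched for 67 of the 76 members. An NRF1 motif (GCGCA, then any base, then GCGC), the element of nuclear respiratory factor 1, was present on either strand in 12 of the 67 (17.9%), against 5.19% of all 27025 genes with a promoter and 11.8% of the 8613 among them that were tested for expression. An ETS family motif (CCGGAAG), the element bound by GABP among others, was present in 24 (35.8%), against 9.93% and 20.2%. A YY1 motif (AAGATGGCG) was present in 8 (11.9%), against 1.64% and 3.65%. An Sp motif (CCCCGCCC) was present in 16 (23.9%), against 19.6% and 37.2%. At least 1 of these 4 motifs was found in 49 promoters, and NRF1 and ETS motifs together in 3. No motif was common to the members, and these shares were not tested against each other.

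The promoters of 4 members are shown because they carry these motifs and because Mrps33 and Mrpl45 recur in the comparison of the genotypes. Each is written 5′ to 3′ on the strand of the gene, with motif matches in capitals. Mrps33 (chr6:39810887-39811186, minus strand) has 1 ETS motif, Mrpl45 (chr11:97315466-97315765, plus strand) has 3 NRF1 motifs, Mrps26 (chr2:130563507-130563806, plus strand) has an ETS motif followed by 2 overlapping NRF1 motifs, and Mrps18a (chr17:46110754-46111053, plus strand) has an ETS and a YY1 motif.
Mrps33: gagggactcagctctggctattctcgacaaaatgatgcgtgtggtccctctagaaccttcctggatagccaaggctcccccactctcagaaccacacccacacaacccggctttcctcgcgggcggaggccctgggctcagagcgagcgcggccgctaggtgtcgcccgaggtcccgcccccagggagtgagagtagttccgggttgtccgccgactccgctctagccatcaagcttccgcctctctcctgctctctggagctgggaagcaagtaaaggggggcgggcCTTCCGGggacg
Mrpl45: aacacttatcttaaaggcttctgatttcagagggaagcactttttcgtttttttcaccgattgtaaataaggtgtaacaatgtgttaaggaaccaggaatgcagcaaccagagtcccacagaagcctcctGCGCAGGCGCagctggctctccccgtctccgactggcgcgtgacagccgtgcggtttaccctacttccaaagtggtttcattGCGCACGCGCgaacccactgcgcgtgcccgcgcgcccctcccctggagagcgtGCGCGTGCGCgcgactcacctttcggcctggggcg
Mrps26: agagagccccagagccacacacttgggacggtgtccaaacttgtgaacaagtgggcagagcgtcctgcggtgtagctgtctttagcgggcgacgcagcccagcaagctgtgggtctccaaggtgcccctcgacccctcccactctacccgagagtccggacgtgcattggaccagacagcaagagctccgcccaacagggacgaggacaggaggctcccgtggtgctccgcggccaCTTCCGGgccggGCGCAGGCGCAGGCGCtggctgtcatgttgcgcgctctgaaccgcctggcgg
Mrps18a: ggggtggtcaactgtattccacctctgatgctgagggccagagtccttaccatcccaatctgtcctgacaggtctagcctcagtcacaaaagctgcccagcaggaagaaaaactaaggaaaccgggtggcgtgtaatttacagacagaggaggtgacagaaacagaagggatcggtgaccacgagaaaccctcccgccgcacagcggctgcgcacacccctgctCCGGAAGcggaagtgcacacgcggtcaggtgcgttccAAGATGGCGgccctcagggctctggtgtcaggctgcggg
The motifs did not sort the members by genotype difference: the median log2 difference was 0.05 in the 12 tested members with an NRF1 motif and 0.05 in the 54 without, and 0.04 in the 24 with an ETS motif and 0.05 in the 42 without.

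The members were expressed at moderate and rather even levels. Of the 76, 75 reached a mean of 10 and were tested, and 53 of these had a mean normalized read count between 500 and 2000. Their median was 830, against 834 over all 12048 genes tested. Per kilobase of exon (GENCODE vM21 gene models), the middle of the tested members lay between 265 and 932, with a median of 549, against 277 over the 10864 tested genes with a length. Large subunit symbols had a median of 686 per kilobase and small subunit symbols 422. The highest levels per kilobase were those of Mrpl52 at 2695, Mrpl24 at 2656 and Mrpl33 at 2103, and the lowest those of Mrps36 at 6.31, Mrpl23 at 12.2, Mrpl48 at 59.9 and Mrps33 at 60.0. All 4 of the lowest have at least 1 annotated pseudogene with 95% or more identity over at least 300 bases. Of all members, 17 have such a copy, 16 of them a single one and Mrps36 4. How reads that fit both a gene and its copy were counted is not given in the sources used here, so the levels of these 17 are uncertain.

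**Figure D1:**
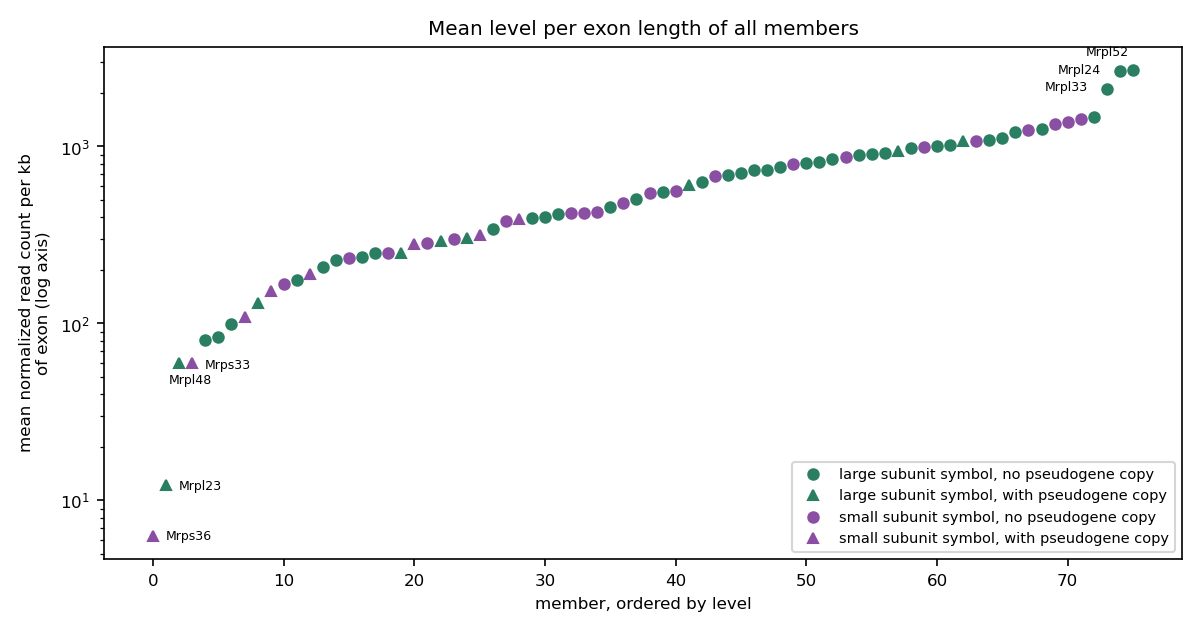
Mean normalized read count per kilobase of exon (log axis) for all 76 members in order of level, coloured by subunit symbol, with triangles for members that have a near-identical pseudogene copy. The 4 lowest members, Mrps36 at 6.31, Mrpl23 at 12.2, Mrpl48 at 59.9 and Mrps33 at 60.0, are all triangles, and Mrpl52 at 2695 is the highest.

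No member passed the test between Het and WT. By limma on log2(value + 1), with Benjamini-Hochberg adjustment over all 12048 genes tested and a threshold of 0.05, 0 of 75 members were called, against 0.515% of all genes, and the smallest adjusted p of a member was 0.171, that of Mrps33. At an unadjusted p under 0.05 there were 5 members (6.67%), against 8.19% of all genes. Of the 5, 4 were higher in Het (Mrps33, Mrpl23, Mrpl45 and Mrpl30, against 3.79% of all genes) and 1 lower (Mrps12, against 4.40%). All Het libraries lay above all WT libraries in 3 members (Mrps33, Mrpl23 and Mrpl45, 4% against 2.13% of all genes), and all below in 0 members, against 2.86%. These counts are small, and the shares are close to those of all genes.

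The differences were small in both subunits. The median log2 difference, Het minus WT, was 0.05 over the 75 members, against 0.01 over all genes tested, and 49 members were above 0 (65.3%, against 52.0%). The large subunit had a median of 0.04 with 30 of 47 above 0, and the small subunit 0.05 with 19 of 28 above 0. Of the 75, 55 lay within 0.2 of 0 on the log2 scale (73.3%, against 63.8% of all genes tested and 75.3% of those with a mean of at least 100), and Mrpl23 alone differed by more than 2-fold. The 95% interval of the difference lay between -1 and 1, that is, within 2-fold either way, for 73 members, with Mrps33 and Mrpl23 the exceptions, and between -0.5 and 0.5 for 48. The small excess of members above 0 moved both ways with single libraries. Without Het 139 the median was -0.0030 with 36 of 75 above 0, and without WT 65 it was 0.0016 with 38 above 0. The share above 0 rose to 78.4% of 74 members without Het 53 and to 73.3% of 75 without WT 54.

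**Figure D2:**
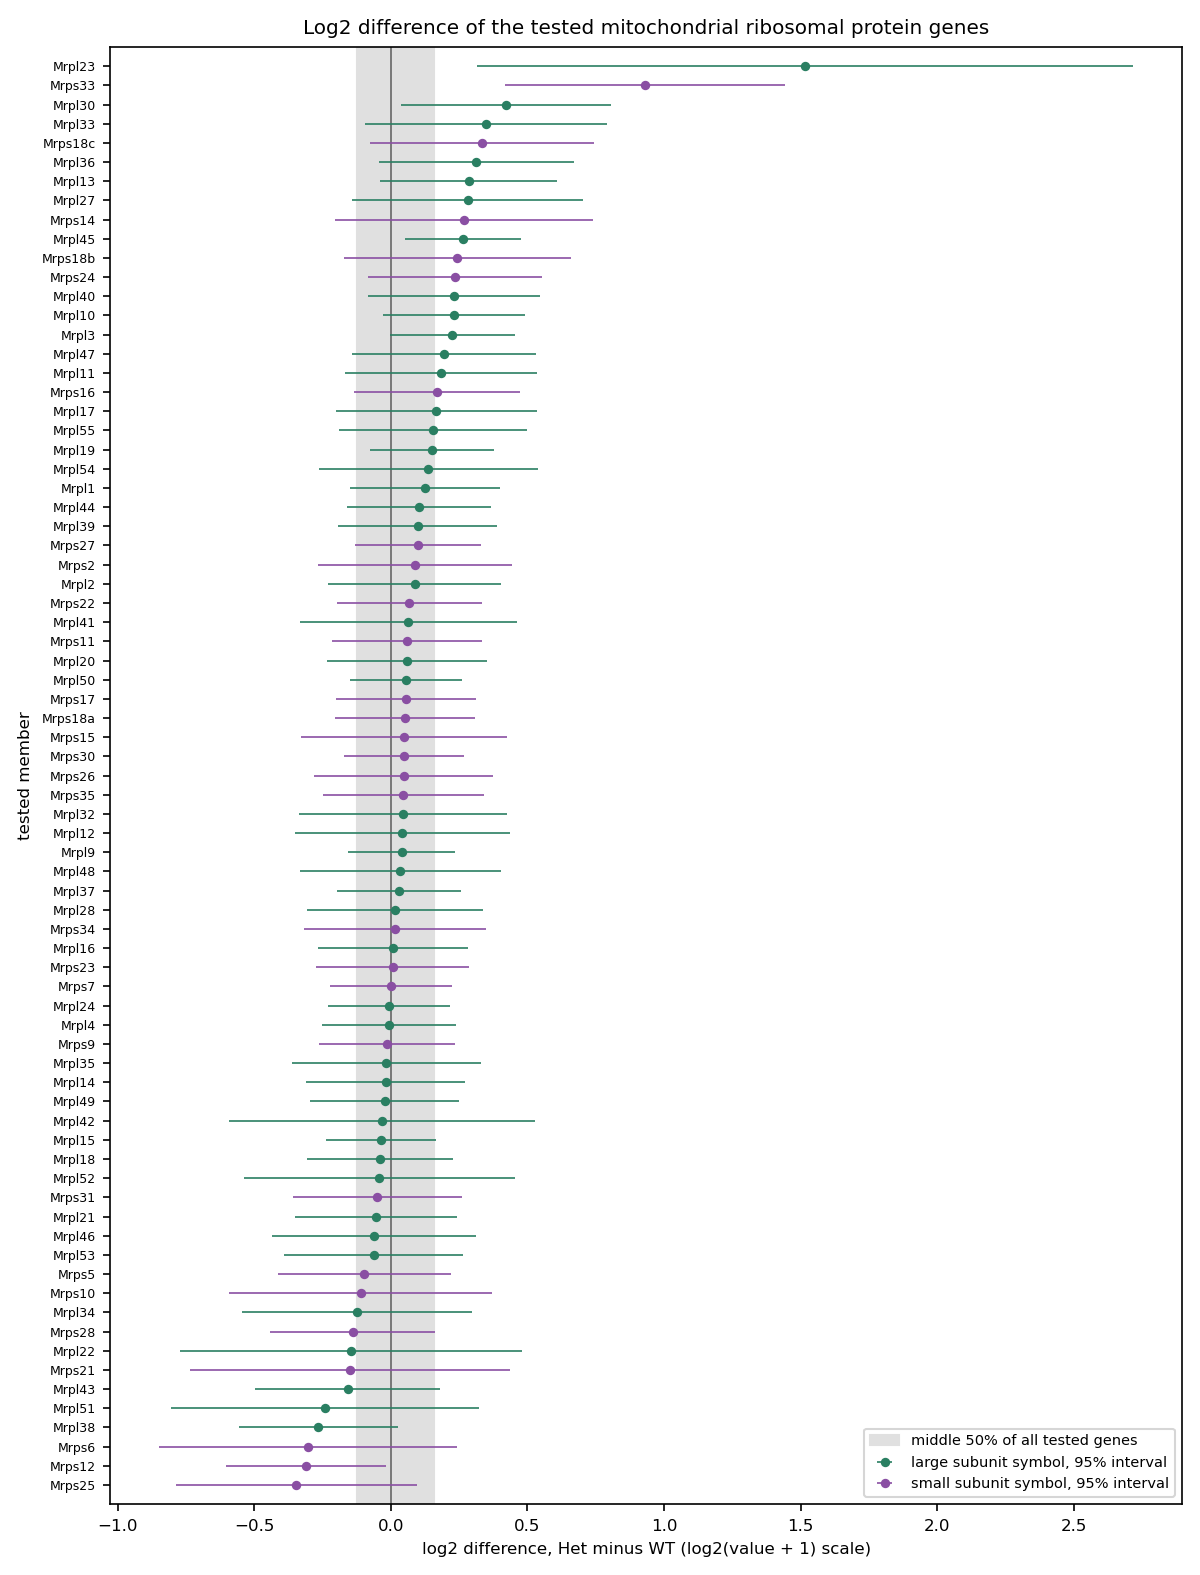
Log2 difference (Het minus WT, on the log2(value + 1) scale) of the 75 tested members with 95% intervals from limma, coloured by subunit symbol, over a grey band that holds the middle 50% of all tested genes. Mrpl23 at 1.52 and Mrps33 at 0.93 stand to the right of the others, which lie between -0.35 and 0.42.

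Mrps33, a small subunit protein that the bacterial ribosome lacks, was the member nearest to the threshold. Normalized read counts for Het 31, 53, 56 and 139 were 118.9, 106.4, 103.3 and 158.1, against 54.8, 62.8, 62.4 and 71.1 for WT 45, 54, 57 and 65. Each Het library was above each WT library, with Het 139 the highest. Het averaged 122 ± 25.2 against 62.8 ± 6.66 for WT (SD, n = 4 per genotype), which is 0.93 higher on the log2 scale (SE 0.23, 95% interval from 0.42 to 1.44). The limma adjusted p was 0.171, and the exact 2-sided permutation p was 0.0286, the smallest that 4 against 4 libraries can give. Mrps33 had been picked out in earlier results of these data because its genotypes did not overlap, so the separation adds no support. The number of different values at or under its own, an estimate of its reads, ranged from 76 to 143 over Het and from 67 to 93 over WT libraries. These estimates overlapped, but they are not scaled for depth. Het 56, at 76, had the fewest different values up to 100 (74, against 106 to 128 in WT libraries). Mrps33 has 1 pseudogene copy (longest match 321 bases). Among the 1438 tested genes with a mean of 50 to 200, the median log2 difference was 0.08 and 59.2% were higher in Het, so values at this level tended to be higher in Het. The part of depth and of the copy in the difference was not tested.

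Mrpl23, a protein at the exit of the peptide tunnel, had the largest log2 difference and one of the lowest levels. Het 31, 53, 56 and 139 had values of 12.5, 27.4, 20.6 and 11.4, against 4.1, 3.5, 7.8 and 6.6 for WT 45, 54, 57 and 65. Het 53 was the highest, and the lowest Het library was above the highest WT library. Het averaged 18.0 ± 7.50 against 5.50 ± 2.04 for WT (SD, n = 4 per genotype), 1.52 higher on the log2 scale (SE 0.54, 95% interval from 0.32 to 2.72). The limma adjusted p was 0.481 and the exact permutation p 0.0286. Its estimated reads ranged from 10 to 31 over Het and from 10 to 14 over WT libraries, and a value of 4.1 in WT 45 and a value of 11.4 in Het 139 both stood for about 10 reads. Among the 873 tested genes with a mean of 10 to 20 the median log2 difference was 0.20. Mrpl23 also has 1 pseudogene copy, matched over 540 bases, whose part was not tested.

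Mrps36, the member below the filter, was near 0 throughout. Het 31, 53, 56 and 139 had values of 9.8, 6, 0 and 13.4, against 1.1, 0, 4.1 and 1 for WT 45, 54, 57 and 65. The genotypes overlapped (exact permutation p = 0.2), and the values rest on an estimated 0 to 13 reads (Het) and 0 to 8 reads (WT).

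Mrpl45, which anchors the large subunit at the inner membrane, is the one member above a mean of 100 whose genotypes did not overlap. Values were 941.7, 901.7, 875.1 and 908.3 for Het 31, 53, 56 and 139, against 802.6, 757.4, 694.2 and 767.1 for WT 45, 54, 57 and 65. Each Het library was above each WT library, and the spread within each genotype was narrow. Het averaged 907 ± 27.4 against 755 ± 45.1 for WT (SD, n = 4 per genotype), 0.26 higher on the log2 scale (SE 0.10, 95% interval from 0.05 to 0.48). It did not pass (limma adjusted p = 0.489, exact permutation p = 0.0286). Mrpl45 has no pseudogene copy by the same search and no exon shared with another gene.

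Mrpl30, another large subunit protein, had values of 2116.5, 1641.5, 1148.6 and 1649 for Het 31, 53, 56 and 139, against 1157.4, 1167.5, 1043.6 and 1452.4 for WT 45, 54, 57 and 65. Het 31, 53 and 139 were above every WT library, while Het 56 lay among them. The log2 difference was 0.42 (SE 0.17, limma adjusted p = 0.575, exact permutation p = 0.114). Mrpl3, a core protein near the peptidyl transferase centre, averaged 1287 ± 101.6 for Het against 1101 ± 94.99 for WT (SD, n = 4 per genotype), a log2 difference of 0.23 with a limma adjusted p of 0.609. Mrpl10, of the stalk base where translation factors dock, averaged 2006 ± 223 against 1712 ± 212 (0.23, adjusted p = 0.652 by limma). Mrpl13, at 747 ± 139 for Het against 605 ± 42.9, and Mrpl36, at 999 ± 234 for Het against 788 ± 52.6, had differences of 0.29 and 0.31 (adjusted p = 0.652 for both, by limma). In each of these 4 genes the genotypes overlapped.

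Mrps12, a protein of the decoding centre, and Mrpl38, of the large subunit, had lower means in Het. Mrps12 had values of 725.8, 587.3, 758.6 and 829.3 for Het 31, 53, 56 and 139, against 868.2, 983.6, 956.1 and 777.6 for WT 45, 54, 57 and 65. Het 139 lay above WT 65, so the genotypes overlapped (log2 difference -0.31, SE 0.13, limma adjusted p = 0.588, exact permutation p = 0.0571). Mrpl38 had values of 1308.2, 1222.7, 1794.3 and 1440.7 for the Het libraries in the same order, against 1834.2, 1850.4, 1736 and 1469.3 for WT. Het 56 lay with the WT libraries (log2 difference -0.27, SE 0.13, limma adjusted p = 0.646). The lowest log2 difference was that of Mrps25, a small subunit protein, at 588 ± 145 for Het against 740 ± 134 for WT (-0.35, SE 0.20, limma adjusted p = 0.660). Of its 6073 exon bases, 3533 are shared with a gene on the opposite strand. Mrps25 also has a pseudogene copy (longest match 2070 bases), so its values are uncertain.

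**Figure D3:**
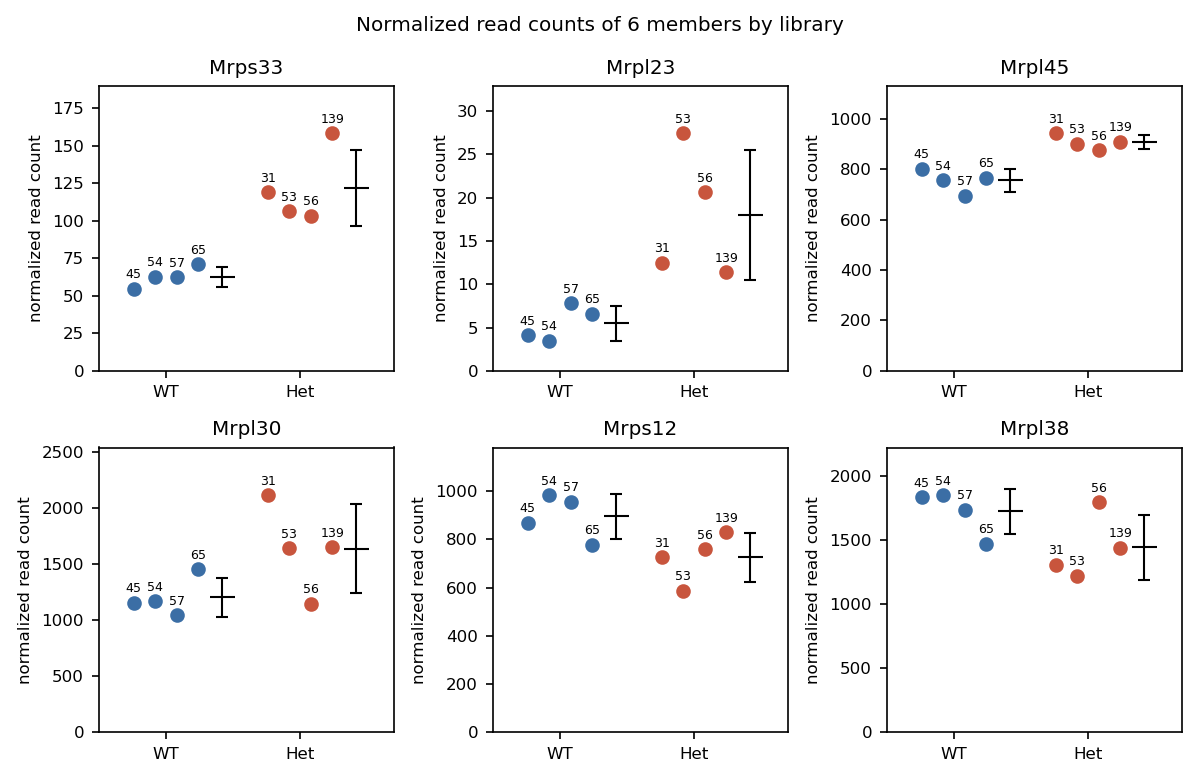
Normalized read count of 6 members in each library, numbered as in the sample titles, with the mean and SD of each genotype (n = 4) as black bars. Het points lie above all WT points for Mrps33, Mrpl23 and Mrpl45, and the genotypes overlap for Mrpl30, Mrps12 and Mrpl38.

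Of the 5 members with the highest means, Mrpl10 and Mrpl38 are described above, and the other 3 had log2 differences near 0. Mrpl24 averaged 4121 ± 345 for Het against 4149 ± 457 for WT (SD, n = 4 per genotype), with a log2 difference of -0.01, a 95% interval from -0.23 to 0.22 and a limma adjusted p of 0.986. Mrpl9 averaged 2566 ± 224 against 2491 ± 101.3 (0.04, -0.16 to 0.23, adjusted p = 0.908 by limma), and Mrps23 averaged 1927 ± 310 against 1905 ± 185 (0.01, -0.27 to 0.29, adjusted p = 0.987 by limma). These intervals leave out a difference of 0.5 either way. Among members of low level, Mrps10 averaged 219 ± 60.6 for Het against 231 ± 30.5, Mrpl27 252 ± 45.6 against 207 ± 33.7, and Mrpl48 284 ± 32.3 against 279 ± 44.3, with limma adjusted p of 0.895, 0.706 and 0.961.

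The 3 Mrps18 genes encode paralogs of bacterial S18, of which a mitochondrial ribosome holds all 3 at different places. Mrps18a averaged 841 ± 97.2 for Het against 809 ± 51.8 for WT (SD, n = 4 per genotype), Mrps18b 327 ± 31.6 against 281 ± 64.0, and Mrps18c 447 ± 111 against 346 ± 26.2. The log2 differences were 0.05, 0.24 and 0.33, and none passed (limma adjusted p = 0.909, 0.740 and 0.653). In Mrps18c, Het 31 at 540.2 and Het 139 at 541 were well above all WT libraries (312.8 to 376.8), Het 53 at 386.9 was slightly above them, and Het 56 at 319.9 lay among them. Mrps18b shares 638 exon bases with a gene on the opposite strand and has a pseudogene copy, and Mrps18c shares 174 with a gene on the same strand, so both values are uncertain.

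The members deviated together in single libraries, on both sides within Het. Het 139 held the highest value of 34 of the 75 members (45.3%, against 16.5% of all tested genes) and Het 31 that of 19 (25.3%, against 20.8%). Het 53 held the lowest value of 20 (26.7%, against 11.4%) and Het 56 that of 15 (20%, against 12.2%). Counted this way, Het libraries led on both sides, while by the median deviation the lowest library was WT 65. The median deviation of the members from their own mean was 0.19 in Het 139 and 0.08 in Het 31 on the log2 scale, and -0.12 in Het 53 and -0.02 in Het 56. Among WT libraries it was highest in WT 54 (0.08) and lowest in WT 65 (-0.13). In Het 139, 68 of 75 members were above their own mean, and in WT 65 only 15 were. The same deviation over all tested genes was between -0.01 and 0.01 in every library. Values brought to the same distribution keep it near 0, so it does not show how far other sets of genes moved. Summed over the 76 members, the values made up 0.281% of the total in Het 139, 0.262% in Het 31, 0.239% in Het 56 and 0.220% in Het 53, and 0.223% to 0.257% in WT libraries. Markers of other cells were high in Het 31 and partly in Het 139, and some were also high in Het 53, where the members were low. Het 31 had the highest summed B cell (16786.6), NK cell (4280) and myeloid (5061) markers. Het 139 was second for NK cell (2849.6) and myeloid (3903.9) markers, above all WT libraries, and at 4830.4 for B cell markers, within the WT range. In Het 139, Eomes alone gave 1879.6 of the NK cell sum and Lyz2 2035 of the myeloid sum. Klrb1c, Ncr1 and Tyrobp, also NK cell markers, were there within the WT range (229.1, 174.5 and 322.1). The myeloid markers Mpeg1 (543.8) and Csf1r (355.3) were within it too, while Cd14 (37.1) was above it. Het 53 was second for B cell markers (8199.6) and at 2446.1 for NK cell markers, in both above all WT libraries. Its myeloid markers (3336.2) were within the WT range. In WT 65, B cell markers summed to 6808, above Het 139. Lyz2, a myeloid marker, was highest in Het 139 (2035) and Het 31 (2010). The part of these cells in the library order was not tested.

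**Figure D4:**
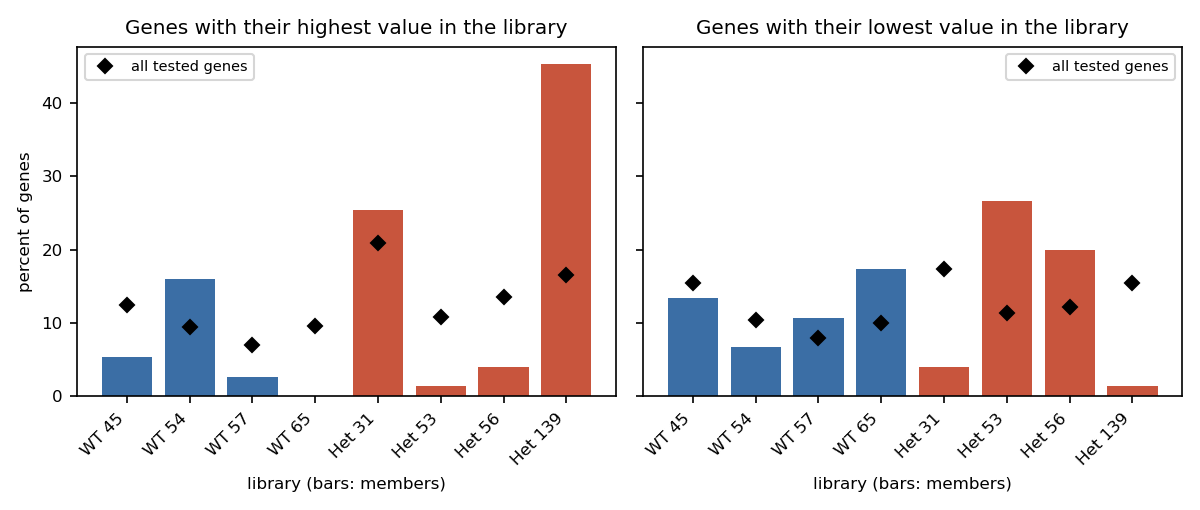
Percent of the 75 tested members (bars) and of all tested genes (diamonds) with their highest value (left) and their lowest value (right) in each of the 8 libraries. Het 139 holds the highest value of 45.3% of the members, against 16.5% of all genes, and Het 53 the lowest value of 26.7%, against 11.4%.

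Both subunits were highest in Het 139, while the lowest library was WT 65 for the large and Het 53 for the small subunit. The median deviation was 0.23 for large and 0.17 for small subunit symbols in Het 139, 0.10 and 0.07 in Het 31, -0.09 and -0.15 in Het 53, and -0.13 and -0.10 in WT 65. The mean log2 level of the large subunit minus that of the small was 0.13, 0.13, 0.10 and 0.11 for Het 31, 53, 56 and 139, against 0.03, 0.16, 0.04 and 0.03 for WT 45, 54, 57 and 65. The Het values lay below WT 54 and above the other 3 WT libraries, that is, within the WT range, and this difference was not tested.

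Single members departed from the shared order. The ratio of the highest to the lowest library was above 2 in 12 members and under 1.2 in 3, with a median of 1.51 over the 73 members with a mean of 200 to 5000 (1.47 over the 7497 tested genes at that level). The steadiest were Mrpl50 (782.9 to 888.7, a ratio of 1.14) and Mrps22 (342.2 to 391.9, a ratio of 1.15). Beside Mrpl23 (7.83) and Mrps33 (2.89), the widest ratios were those of Mrpl51 (2.30), Mrps14 (2.30), Mrps21 (2.25), Mrpl52 (2.25) and Mrps6 (2.24). Over the 16 tested members with a pseudogene copy the median ratio was 1.79, and over the 59 without one it was 1.45.

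A second library pattern crossed the genotypes. Mrpl51, of the large subunit, had values of 345.5, 259.4, 465 and 597 for Het 31, 53, 56 and 139, against 553.1, 521.7, 500.8 and 337.1 for WT 45, 54, 57 and 65. WT 65, Het 31 and Het 53 were low and the other 5 libraries high. Mrpl22, Mrpl42, Mrpl46, Mrps15, Mrps21 and Mrps25 had the same 3 libraries below all others. These were 7 of 75 members (9.33%), close to the 7.76% of all tested genes, so this order is not particular to the members. A pseudogene copy is present in 4 of the 7 (Mrpl22, Mrpl42, Mrpl51 and Mrps25), against 16 of all 75 tested members. The opposite order, with the 3 libraries above the other 5, was found in 0 members, against 8.86% of all tested genes. This pattern was noticed in the values, and the labels name nothing that these 3 libraries share.
A further group was highest in Het 31: Mrps14, at 1250.2 there against 544.5 to 906.6 elsewhere, and Mrpl33, at 1547.6 against 742.9 to 1147.8. In both, Het 56 was the lowest library. Mrps6 went against the shared order, with its highest values in WT 45 (729.7) and WT 65 (625.4) and its lowest in Het 139 (325.1); 305 of its 846 exon bases are shared with genes on the same strand.

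**Figure D5:**
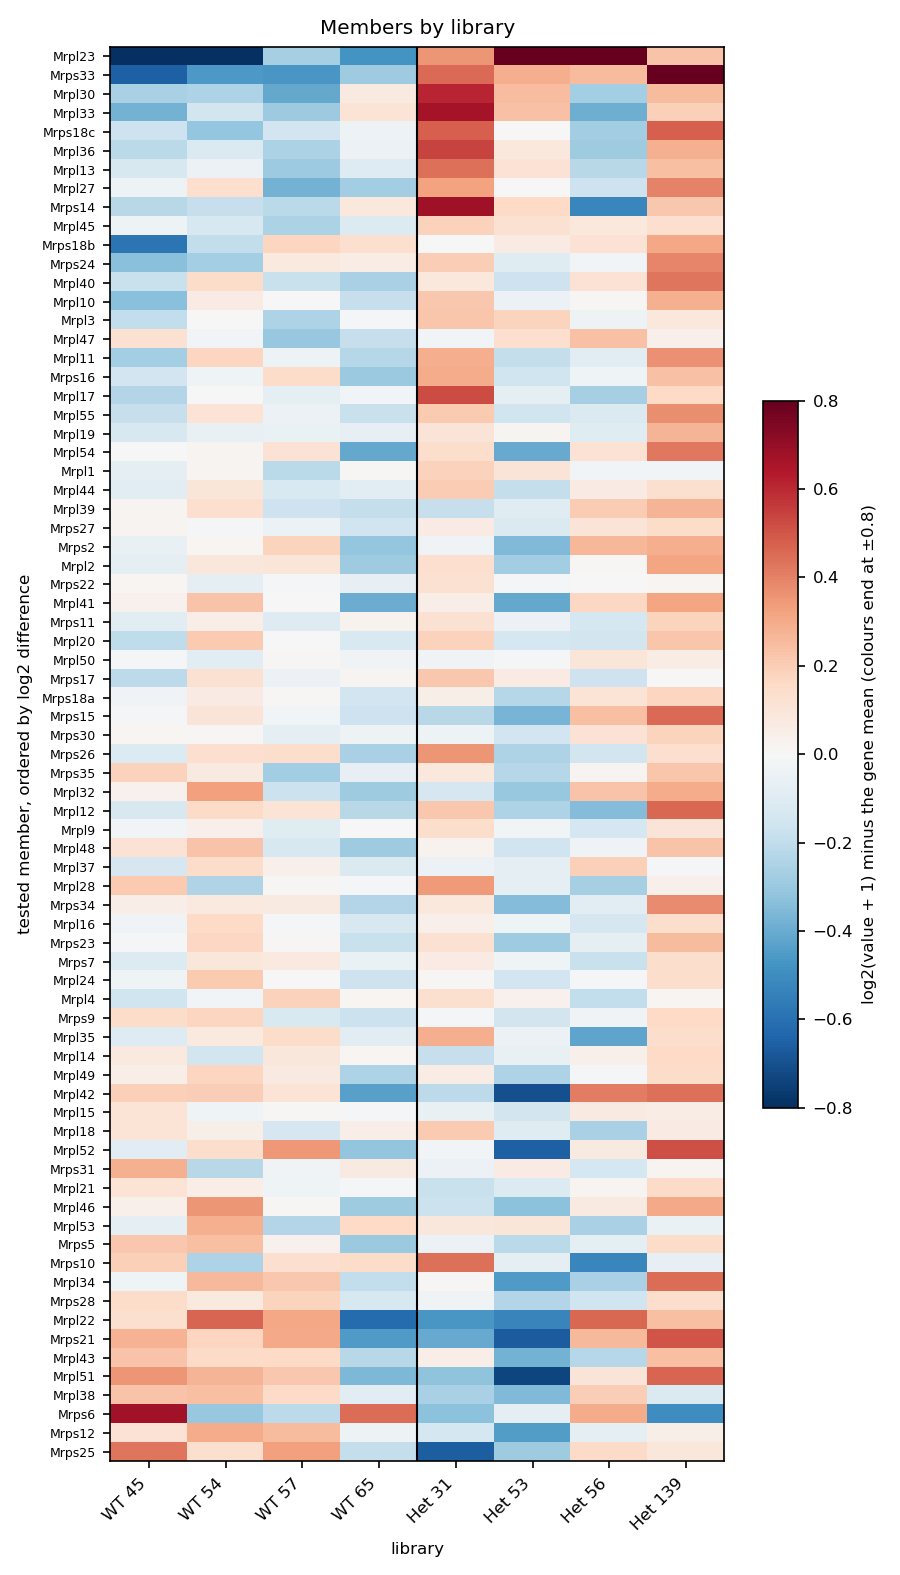
Log2(value + 1) of the 75 tested members in each library minus the mean of the gene (colours end at ±0.8), ordered by log2 difference between the genotypes. The Het 139 column is mostly red and the Het 53 and WT 65 columns mostly blue, and Mrpl51, Mrps21 and Mrpl22 are blue in WT 65, Het 31 and Het 53.

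Proteins of the mitochondrial ribosome with other names were also highest in Het 139 when summed, and lowest in Het 56. Of 7 such genes, 0 passed the limma test. The Het mean was the higher in 5 and the lower in 2 (median log2 difference 0.06). Their summed value was 9291.2 to 10932.5 in WT libraries, and 12370.7 in Het 139, 11252.6 in Het 31, 9464.1 in Het 53 and 9266.4 in Het 56. Aurkaip1, a small subunit protein, averaged 1875 ± 404 for Het against 1613 ± 97.7 for WT (SD, n = 4 per genotype, limma adjusted p = 0.728). Mrp63, of the large subunit, averaged 933 ± 275 against 791 ± 100.1 (limma adjusted p = 0.782), and Ict1, a peptide release factor built into the large subunit, 1744 ± 364 against 1559 ± 212 (limma adjusted p = 0.783).

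Genes that assemble or serve the mitochondrial ribosome did not pass either. Of 23 assembly factors, 16 were higher and 7 lower (median 0.06), with Ddx28, an RNA helicase of large subunit assembly, at 352 ± 46.3 for Het against 277 ± 23.4 for WT (SD, n = 4 per genotype, log2 difference 0.34, limma adjusted p = 0.601), and Mtg1, a GTPase of the same process, at 633 ± 159 against 468 ± 49.1 (0.40, adjusted p = 0.617 by limma). Of 29 translation factors and mitochondrial tRNA synthetases, 14 were higher and 15 lower (median -0.0047). Mtrf1, of the release factor family, had values of 87.5, 100.6, 99.6 and 136.5 for Het 31, 53, 56 and 139, against 30.2, 45.4, 88.8 and 80.6 for WT 45, 54, 57 and 65. WT 57 lay above Het 31, so the genotypes overlapped (log2 difference 0.89, limma adjusted p = 0.550). Of 15 genes for mitochondrial RNA synthesis and handling, 8 were higher and 7 lower (median 0.02). Polrmt, the mitochondrial RNA polymerase, averaged 2011 ± 174 for Het against 2319 ± 214 for WT (-0.20, adjusted p = 0.640 by limma), and Tfam, which packs and transcribes mitochondrial DNA, 2236 ± 346 against 1879 ± 126 (0.24, adjusted p = 0.646 by limma).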

How the data were processed

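Messenger RNA was sequenced in 8 libraries of naive CD8 T cells (WT and Het, 4 each), from stranded libraries of polyadenylated RNA, per the labels' protocols. The deposited signal values are the authors' normalized read counts per gene. Per the submitters' processing notes, CASAVA, TopHat2, HTSeq, DESeq and build mm9 were involved, in roles not stated. How values were normalized, whether strand was used and how reads with several matches were treated is not given in the sources used here. Sorted values differed between libraries by under 2% of the mean at all 9513 ranks averaging 100 or more, so the libraries share 1 distribution, and depth is known only from the spacing of low values.

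The 12048 genes averaging 10 or more were fitted with limma 3.58.1 (R 4.3.3) on log2(value + 1), with a variance trend, 2-sided tests and Benjamini-Hochberg adjustment. The fit was tested on simulated data. Fold changes on this scale understate the change of low genes. Single genes were also compared by an exact permutation test over all 70 splits. Named were Mrps33, the 10 members with the smallest p, the 5 highest and 5 lowest by mean, those below the filter, the Mrps18 genes, and up to 3 genes of each other list; others (Mrps25, Mrpl50, Mrps22, Mrps6 and members named for a library pattern) were picked once their values were known. The members and lists were chosen with earlier results of these data known. Exon lengths, overlaps and near-identical copies (BLAST 2.17.0) come from GENCODE vM21, another build than mm9, and were used without coordinates. Mitochondrially encoded transcripts and protein sequences were not analysed here. Alternatives were the pseudocount (0.5, 5), the filter (none, 50), median-ratio scaling, array weights, quantile normalization of log2 values, a robust fit, no trend and leaving out each library.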

Additional observations from a re-analysis of the deposited data

Results flagged for a closer look

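A library was marked when it stood off from the other 3 of its genotype by most of their common range, an event that chance alone brings in about 1 group in 20. Of 126 groups of named genes, 5 (3.97%) were marked. Mrps10 was at 185.6 in WT 54, below the other WT libraries at 242.5 to 251.6. Outside the members, Cd3g was at 18659.4 in WT 54 (others 15715.2 to 16087.9) and Lyz2 at 1133.4 in WT 54 (others 578.2 to 664.3). S100b was at 15.0 in Het 56 (others 0.9 to 3.2), and Mtap1b at 76.1 in Het 56 (others 2.4 to 7.9).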

How the results depend on the processing

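In all 17 alternatives, 0 members were past the threshold by limma, with 2 to 12 members at an unadjusted p under 0.05. The adjusted p of Mrps33 ranged from 0.0512 (no trend) to 0.586 (mean of at least 50). The median log2 difference of the members stayed between 0.02 and 0.05 with all libraries kept, and between -0.0030 and 0.11 with 1 left out, where 36 to 58 members were above 0. Over all genes, 123 were called without the filter and 14 with a mean of at least 50, and 11 to 91 with 1 library left out. Mrps23 turned to -0.0038 under median-ratio scaling and -0.022 with array weights. With 1 library left out, the log2 difference changed sign in Mrps23 (-0.076 to 0.10), Mrpl24 (-0.063 to 0.062), Mrpl48 (-0.055 to 0.12), Mrpl9 (-0.00023 to 0.093) and Mrps10 (-0.28 to 0.047), and the cause was not tested. Of the 19 members followed, the other 14 kept their direction wherever they were fitted; Mrpl23 fell below the filter without Het 53 and at a mean of 50. Other members named in the text were not followed. Few reads limit Mrpl23 and Mrps36. The count test was not run because whole reads could not be recovered from the values. No paired analysis was possible because the genotypes share no replicate number.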
